A study of Mus musculus with 143 samples.

Results

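Lysosomal glycosidases, sulfatases and lipid hydrolases are the soluble enzymes that take apart sugar chains and lipids in the acid interior of the lysosome. The 31 genes described here encode such enzymes, 2 of their cofactors and a few lysosomal proteins handled with them. They were taken by name from a list, and all 31 had a row among the 23337 gene rows of the count table. By role, 7 act on glycoproteins, 8 on glycosaminoglycans and 10 on lipids, and 6 have other lysosomal roles. Microglia were sorted one by one from cerebella pooled from male wild type C57BL6N mice. The age label gives postnatal day 7, while the name of the pooled library holds the word adult; day 7 is used here. The gate asked for low CD45 together with CD11b, Gpnmb and Clec7a on the surface, and libraries were full-length Smart-seq2. All 143 cells, 95 on one plate (plate 1) and 48 on another (plate 2), share these labels, and no ungated population was analysed here. As the cells come from 1 pool that cannot be divided by animal, they were treated as 1 sample and no test was run between cells.

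Lysosomal hydrolases are made in the endoplasmic reticulum, receive a mannose 6-phosphate tag in the Golgi and are carried to the lysosome by receptors for that tag. Many work in a fixed order, each removing the group that the one before it exposed, so that loss of a single enzyme leaves its substrate stored in the cell. Microglia take up dying cells and myelin during development, and glycolipids and glycoproteins from that material are broken down by these enzymes.

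Cells had between 259613 and 1178530 gene counts (median 727276) and between 1552 and 4955 genes detected (median 3255). A gene is called read in a cell that has at least 1 count of it. Of 8 microglial markers, 5 were read in 90% of cells or more, and together the 8 made up 1.35% of gene counts. The others were P2ry12, read in 88.1% of cells, Sall1 in 58.7% and Tmem119 in 25.9%. Summed over each list, markers of other cells were low, although Mrc1 of the border macrophage list was read in more cells than Tmem119. The border macrophage list took 0.024% of gene counts, between 0% and 0.176% of a cell's counts, with Cd163, Lyve1 and Cd209f read in no cell, Mrc1 in 55.9%, Ms4a7 in 21.0%, Pf4 in 16.1%, Cbr2 in 10.5% and F13a1 in 3.5%. The oligodendrocyte list took between 0% and 0.063% of a cell's counts, with Mog, Mobp, Cldn11 and Olig1 at 0, Cnp read in 35.7% of cells, Mbp in 13.3%, Mag in 10.5% and Olig2 in 0.699%. The monocyte, neutrophil, astrocyte, neuron and endothelial lists reached at most 0.070% in any cell. A gene read in none of the 143 cells has an exact 95% interval that ends at 2.55%.

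Transcription factors of the MiT family, TFEB among them, bind the CLEAR element of 10 bases upstream of many lysosomal genes, and its core CACGTG reads the same on both strands. RefSeq promoters (GRCm38.p6, the assembly of mm10) were found for 27 of the 31 genes, and the 250 bases before the start were searched. The core stood in 6 of these 27 genes (22.2%), against 6.86% of all 27025 genes in the promoter table and 10.6% of the 5327 promoter genes that were also ranked for level here. The full element of 10 letters was found in 0 of the 27 and in 0.270% of all genes. The windows below are shown because they hold the core, and 1 is given for each of 5 genes; matches without an intact core were not searched. Capitals mark the core, and each runs 5′ to 3′ on the strand of its gene.
Gla, chrX:134601182-134601211, minus strand: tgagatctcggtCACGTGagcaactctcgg
Glb1, chr9:114401018-114401047, plus strand: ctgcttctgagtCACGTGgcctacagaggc
Naglu, chr11:101070009-101070038, plus strand: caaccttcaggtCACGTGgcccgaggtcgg
Sgsh, chr11:119355522-119355551, minus strand: gggcctgccgtgCACGTGaccgtggggagc
Gaa, chr11:119267811-119267840, plus strand: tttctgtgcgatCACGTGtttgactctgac
The first 3 windows match the element at 9 of 10 letters, Sgsh at 8 and Gaa at 7. Arsa also holds the core, at 8 letters, and Gla holds it in another place, at 8 letters. In GENCODE, which sets some starts further upstream, the Naglu and Sgsh windows and that of Arsa overlap the annotated gene. A match is a description of these letters and not a bound site. The 6 genes with the core had a median of 42.1 CPM per kilobase and the 21 without it 73.6, with ranges of 1.02 to 73.2 and 1.12 to 1086 that overlap.

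Most of these genes were read widely. Of the 31, 12 were read in at least 90% of cells (4.26% of the 12801 genes with a count were), another 8 in 50 to 90% and 11 in fewer. Set against the running median of genes of their own pooled level, 20 of the 31 were read in fewer cells. By construction, genes lie about equally above and below a running median. The share of all genes below it was not computed, so the count is not read as a trait of the 31. In every cell 5 were read, Grn, Hexa, Gusb, Tpp1 and Gm2a, where 0.961% of genes with a count were. A cell had between 14 and 27 of the 31 genes (median 21), and the 12 frequent ones were all read in 74.8% of cells. Together the 31 genes took 1.64% of gene counts, 1.64% on each plate, and between 0.811% and 2.69% of the counts of a cell. The lipid genes held 36.5% of these counts, the other lysosomal genes 33.3%, the glycosaminoglycan genes 17.4% and the glycoprotein genes 12.8%. In each role 3 genes held most of the counts, 77.1% for glycoproteins, 87.2% for glycosaminoglycans, 76.1% for lipids and 94.1% for the others.

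**Figure D1:**
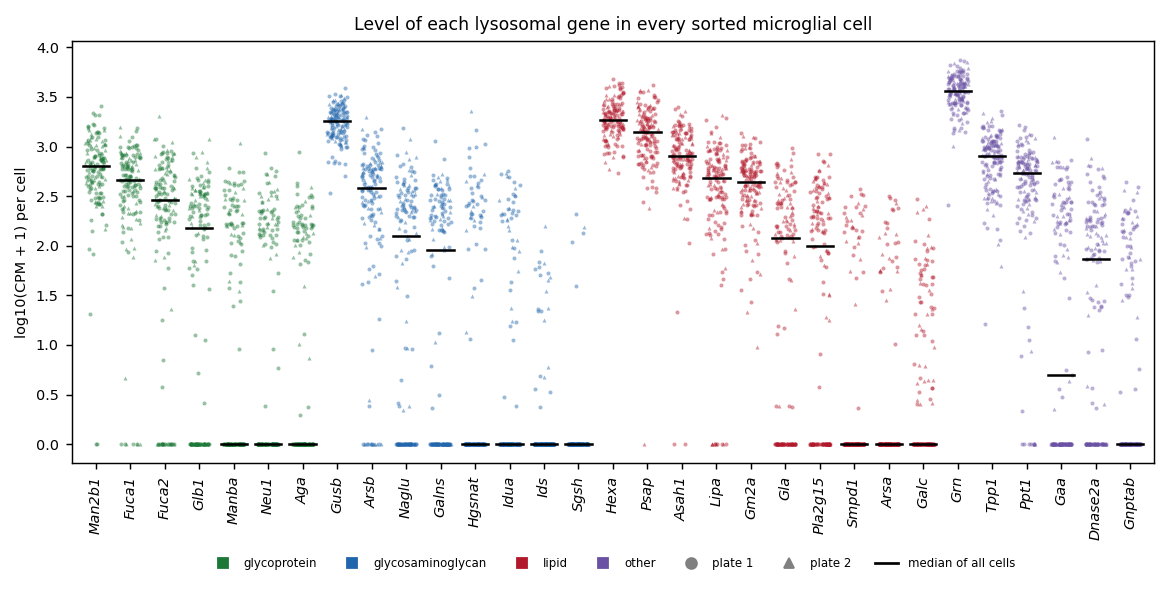
Level of each of the 31 genes in each of the 143 cells, as log10(CPM + 1) on the vertical axis, with genes on the horizontal axis grouped by role and ordered by pooled level. Circles are cells of plate 1, triangles cells of plate 2, and black lines the median of all cells; 5 genes have no cell at 0, while 11 have their median at 0.

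Levels are given as CPM, counts per 1000000 gene counts. For comparison between genes they were divided by the kilobases of exon, since full-length reads grow with transcript length. On that scale of pooled levels the order ran from Grn at 1086 CPM per kilobase through Hexa at 1043, Psap at 563, Gusb at 406 and Asah1 at 275 down to Galc at 1.55, Ids at 1.12 and Sgsh at 1.02. Among 11518 genes with a count and an exon length, Grn and Hexa stood at percentile 99.8, Gusb at 99.4 and Sgsh at 28.5. Neighbours in this order mostly did not differ beyond the spread of cells. Of 30 neighbouring pairs, only Hexa and Psap had quartile ranges that did not overlap, 751 to 1233 and 324 to 715 CPM per kilobase. The leading 10 genes were the same 10 on both plates. Divided by the longest transcript instead, Gusb at 688 stood above Psap at 582 CPM per kilobase, and Galc was at 5.21.

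Among genes for glycoprotein breakdown, 2 of 7 were read in at least 90% of cells. Man2b1, the lysosomal alpha-mannosidase, had a lowest value of 0, a median of 639 and a highest of 2559 CPM, and was read in 98.6% of cells. Fuca1, the lysosomal alpha-fucosidase, had a median of 463 and a highest of 1583 CPM and was read in 95.1% of cells (exact 95% interval 90.2 to 98.0). Fuca2, a related fucosidase, was read in 85.3% with a median of 286 CPM. Both fucosidase genes were read in 81.1% of cells, Fuca1 alone in 20 cells, Fuca2 alone in 6 and neither in 1. Spearman's rho between their levels across cells was 0.026 on plate 1 and -0.054 on plate 2.

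The rest of this role, apart from Glb1, was read in under 50% of cells. Glb1, the acid beta-galactosidase that acts on glycoproteins, keratan sulfate and the ganglioside GM1, had a median of 149 and a highest value of 1186 CPM, and 65.7% of cells had it (57.3 to 73.5). Manba, the beta-mannosidase that removes the last mannose, was read in 68 cells and at most at 1097 CPM. Neu1, the sialidase that starts the trimming, was also read in 68 cells, at most at 862 CPM. Aga, which cuts the sugar from asparagine, was read in 65 cells, at most at 890 CPM. These last 3 genes had a median of 0 over all cells, but cells that had them had medians of 207, 187 and 156 CPM. Where read they were mostly well above a single count, with under 5 counts in 0, 2 and 2 cells.

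Genes for glycosaminoglycan breakdown ranged from read in every cell to read in 5 cells. Gusb, beta-glucuronidase, was read in every cell, at a lowest value of 343, a median of 1828 and a highest of 3872 CPM. Arsb, the sulfatase for dermatan and chondroitin sulfate, had a median of 381 CPM, and 90.2% of cells had it (84.1 to 94.5). Galns, the sulfatase for keratan sulfate and chondroitin 6-sulfate, was read in 56.6% (48.1 to 64.9), with a median of 89.2 CPM. Both sulfatases were read in 73 cells and neither in 6. Of the exon bases of Arsb, 39.9% are shared with exons of other genes, mostly a long noncoding RNA on the opposite strand, and whether counting used strand was not given in the sources used here.

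Heparan sulfate is taken apart from its end by a chain of enzymes. Naglu, which removes the acetylated glucosamine, was read in 65% of cells (56.6 to 72.8), Hgsnat, the membrane enzyme that adds the acetyl group beforehand, in 34.3% (26.5 to 42.7), and Idua, the iduronidase, in 31.5% (24 to 39.8). Ids, the iduronate sulfatase, was read in 22 cells (15.4%, 9.90 to 22.4) and Sgsh, the sulfamidase, in 5 (3.5%, 1.14 to 7.97). With Gusb these make 6 genes of the chain among the 31. No cell had all 6 read; 2 cells had 5, 17 had 4, 50 had 3, 55 had 2 and 19 had Gusb alone. The median number of genes detected was 3125 in cells with 1 of them, 3072 with 2, 3419 with 3, 3462 with 4 and 3349 with 5. Whether unread genes were absent or missed was not detectable at this depth.

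**Figure D2:**
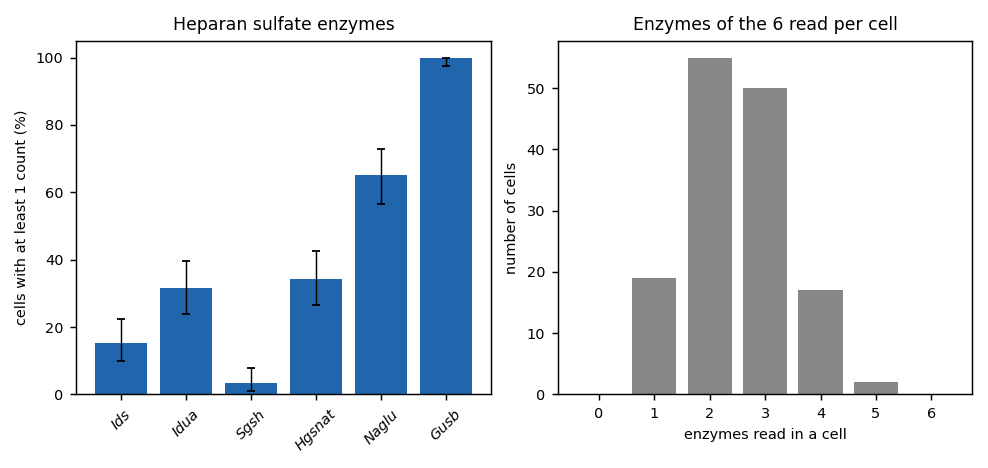
Left, share of the 143 cells with at least 1 count for each of the 6 genes of heparan sulfate breakdown among the 31 (vertical axis in percent, bars with exact 95% intervals). Right, number of cells (vertical axis) by how many of the 6 genes were read (horizontal axis), from 19 cells with 1 to 2 cells with 5.

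The rarely read genes were of different kinds. The 5 cells with Sgsh had a median of 92 counts, and the highest of them, on plate 1, had 206 CPM; 1 of the 5, at 152 CPM, was on plate 2. By contrast, cells with Ids had a median of 22 counts, and 6 of the 22 had fewer than 5. Sgsh shares 21.6% of its exon bases with Card14 on the opposite strand. The core printed above for Sgsh thus stands before a gene with the lowest level per kilobase of the 31.

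Genes for lipid breakdown included Hexa and Psap, which came just after Grn in the order per kilobase. Hexa, the alpha subunit of beta-hexosaminidase, was read in every cell, with a lowest value of 547, a median of 1870 and a highest of 4765 CPM; 12.8% of its exon bases are shared with Tmem202 on the opposite strand. Gm2a, the activator that lifts the ganglioside GM2 to that enzyme, was also read in every cell, from 8.63 through a median of 443 to 1370 CPM. Genes of a pooled level like that of Gm2a were read in a median of 95.8% of cells. Psap, the precursor of the saposins that present sphingolipids to their hydrolases, had a median of 1403 and a highest value of 4131 CPM and was missing in 1 cell. Asah1, the acid ceramidase on which sphingolipid breakdown converges, had a median of 803 and a highest value of 2523 CPM and was missing in 2 cells. Lipa, the acid lipase for cholesteryl esters and triglycerides, had a median of 481 CPM, and 93% of cells had it (87.5 to 96.6).

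The enzymes of single sphingolipids were read less widely than these shared components. Gla, the alpha-galactosidase for globotriaosylceramide, was read in 64.3% of cells (55.9 to 72.2) and Pla2g15, a lysosomal phospholipase, in 62.2% (53.8 to 70.2). Galc, which cuts galactosylceramide, the main glycolipid of myelin, was read in 45.5% (37.1 to 54). Smpd1, the acid sphingomyelinase, was read in 23.8% (17.1 to 31.6) and Arsa, the sulfatase for the myelin lipid sulfatide, in 21.0% (14.6 to 28.6). Sulfatide needs Arsa, Galc, saposins and Asah1 in turn, and all 4 genes were read in 14 cells. These were the same 14 cells that had both Arsa and Galc, as Psap and Asah1 were read in nearly all cells. Between Arsa and Galc, rho was 0.010 on plate 1 and 0.054 on plate 2. The cells with Galc had low values, with a median of 23 counts and under 5 counts in 16 of 65, and at most 299 CPM. Genes of the pooled level of Galc were read in a median of 18.9% of cells, so Galc was read in more cells, at lower counts, than others of its level. Antisense RNA shares 18.8% of the exon bases of Arsa.

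**Figure D3:**
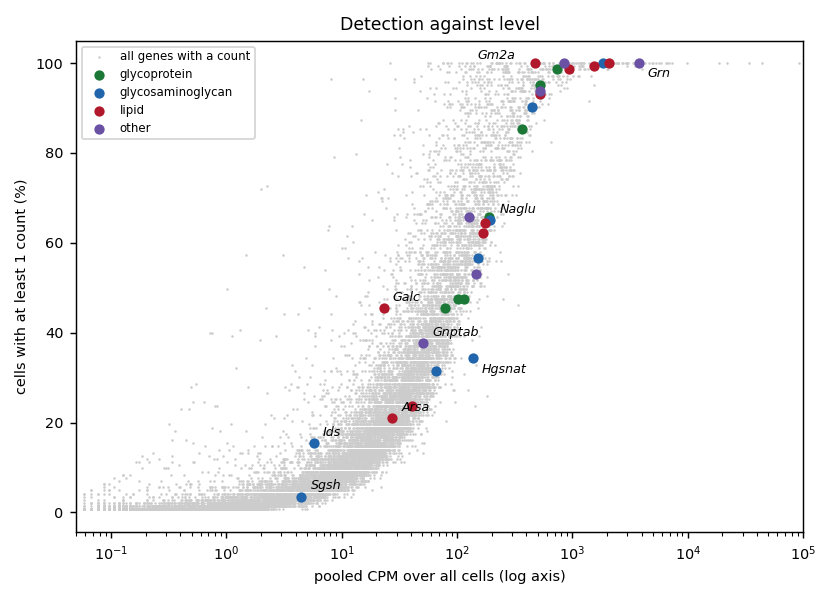
Share of cells with at least 1 count (vertical axis, percent) against pooled CPM over all 143 cells (horizontal log axis) for every gene with a count (grey) and for the 31 genes, coloured by role. Galc (45.5%) and Ids (15.4%) lie above the running median of genes of their level (18.9% and 6.29%), within the grey points, and Hgsnat (34.3%) lies below its own (65.7%).

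Of the genes with other lysosomal roles, Grn was the most abundant of all 31. It encodes progranulin, a secreted and lysosomal protein cut into granulins, and ranged from 258 through a median of 3655 to 7474 CPM. Tpp1, a peptidase that removes tripeptides, had counts in all cells, with a median of 800 CPM, and Ppt1, which removes fatty acids from proteins, in 93.7% at a median of 535 CPM. Dnase2a, the acid nuclease that digests DNA of engulfed cells, was read in 65.7% of cells (57.3 to 73.5), with 30.0% of its exon bases shared with Mast1 on the opposite strand. Gaa, the acid glucosidase for glycogen, was read in 53.1% (44.6 to 61.5), at most at 1258 CPM. Gnptab, which encodes subunits of the enzyme that makes the mannose 6-phosphate tag in the Golgi, was read in 37.8% (29.8 to 46.2), at most at 441 CPM.

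The other genes of tagging and sorting also ranged widely. Of 15 in that list, 2 reached 90% of cells and 6 reached 50%, and the list took 0.207% of gene counts. M6pr, the small cation-dependent receptor for the tag, was read in 95.8% of cells at 561 pooled CPM. Lrp1, an endocytic receptor, was read in 95.1% at 445, Scarb2, the carrier of glucocerebrosidase, in 71.3% at 199, Cln8 in 67.8% at 184 and Nagpa, which uncovers the tag, in 60.8% at 178. Of 29 further lysosomal hydrolases and related proteins described here, 7 reached 90% of cells, 11 reached 50% and 3 had no count (Neu4, Rnaset2a and Dnase2b). Ctsa, Lyz2, Pld3, Pld4 and Npc2 were the highest of these 29 in pooled CPM, at 5660, 2050, 1938, 1256 and 1199. Rnaset2a and Rnaset2b are near-identical copies, so reads may be assigned to the wrong copy or to neither. Rnaset2b was read in all 143 cells at 56.1 pooled CPM.

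The spread between cells was measured as excess of variability. It is the log2 of CPM variance over squared mean, relative to the running median of this quantity among genes of like mean, so 0 is the spread usual for that level. Of the 31 genes, 29 could be ranked (read in at least 10% of cells with a pooled CPM of 10 or more), Ids and Sgsh being too low. Their median was 0.25, where that of all 7215 ranked genes was 0.00 and that of 11 ranked cathepsin genes -0.72; with a narrower running window the cathepsin median was -0.19 and that of the 29 genes 0.26. Below 0 were 9 of the 29, against 49.7% of all ranked genes. The lowest were Gusb at -0.96, Grn at -0.80, Galc at -0.63 and Hexa at -0.47, while Tpp1, also read in every cell, was at 0.06. Of the roles, glycosaminoglycan genes had a median of 0.57, glycoprotein genes 0.33, the others 0.10 and lipid genes 0.02.

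Hgsnat was the 1 gene of the 29 with an excess of 1 or more, a bound passed by 1.58% of ranked genes. Its excess was 1.88, 1.51 on plate 1 and 2.69 on plate 2. Hgsnat (chromosome 8, 25944453 to 25976753, minus strand) had no count in 94 cells, a median of 255 CPM in the 49 cells that had it, and over 500 CPM in 9 cells. Its highest values were 2280, 1455, 1061, 989 and 969 CPM, on both plates, and these 5 cells held 36.8% of its summed CPM. Of those 5 cells, the highest had 1994 genes detected and another had 2000, where all cells had 1552 to 4955. Without the 3 cells that had under 2000 genes the excess was 1.53. Genes of the pooled level of Hgsnat were read in a median of 65.7% of cells, against 34.3% for Hgsnat. On the variance of log2(CPM + 1) its excess was 0.18.

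**Figure D4:**
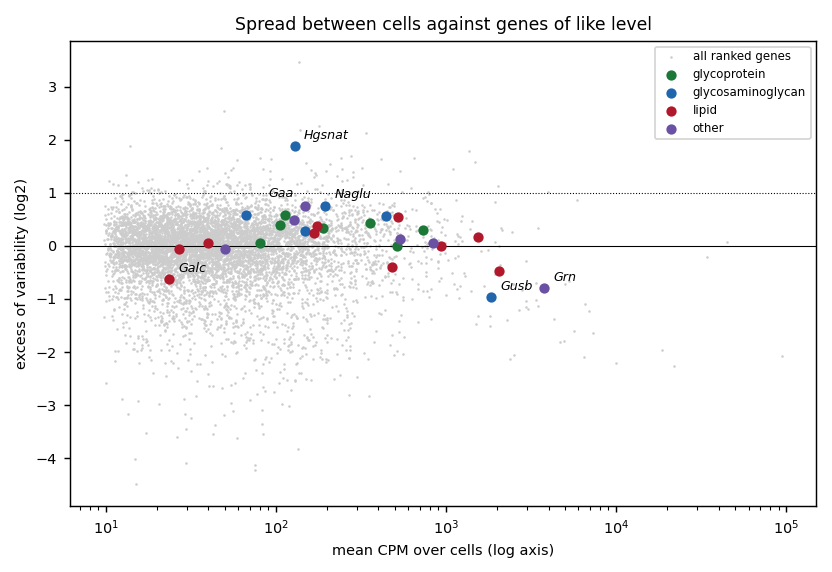
Excess of variability (vertical axis, log2) against mean CPM over cells (horizontal log axis) for all 7215 ranked genes in grey and the 29 ranked genes of the 31, coloured by role. The dotted line marks an excess of 1, which Hgsnat alone of the 29 passes at 1.88, while Gusb (-0.96) and Grn (-0.80) lie below 0.

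After Hgsnat the largest excess was that of Naglu, at 0.76, and of Gaa, at 0.74. The genes most like these 3 across cells, among 5420 genes compared, had a rho averaged over the plates of at most 0.41. For Hgsnat they were Tacc3 (Spearman rho 0.26 on plate 1 and 0.56 on plate 2), Cul4a (0.27 and 0.44), Ngfrap1 (0.31 and 0.39), Adprhl2 (0.24 and 0.39) and Polb (0.14 and 0.48). For Naglu they were Ethe1 (0.32 and 0.46), Mid1ip1 (0.29 and 0.39), Tcf7l2 (0.27 and 0.36), Csf3r (0.014 and 0.60) and Tmem30a (0.098 and 0.51). For Gaa they included Xpot (0.31 and 0.27), Ormdl2 (0.29 and 0.29), Gm12942 (0.095 and 0.44) and Pabpc4 (0.014 and 0.52). Several of these were thus near 0 on plate 1. These pairs were picked as the highest of many over 95 and 48 cells of shared libraries, and are given as a description.

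Correlations between the 31 genes across cells were low. Over 190 pairs of the 20 genes that reached 50% of cells, the median rho, averaged over the plates, was 0.048, against 0.016 over all pairs of 2197 such genes and 0.20 over pairs of 10 cathepsin genes. A rho of 0.3 or more was reached by 5 of the 190 pairs (2.63%) and by 0.377% of all pairs; scaled to spike-ins, 25 of the 190 (13.2%) and 5.1% of all pairs reached it. The highest were Hexa with Grn (0.44 on plate 1 and 0.43 on plate 2), Fuca1 with Arsb (0.24 and 0.56), Tpp1 with Grn (0.17 and 0.51), Hexa with Gm2a (0.33 and 0.33) and Hexa with Psap (0.38 and 0.24). The lowest of all 465 pairs were Hgsnat with Lipa (-0.18 and -0.35), Gm2a with Gnptab (-0.22 and -0.28) and Hexa with Gnptab (-0.29 and -0.20). The members of the highest pairs are abundant genes, and Hexa is in 3 of them.

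The summed share of the 31 genes moved with that of the cathepsins across cells, at a rho of 0.69 on plate 1 and 0.71 on plate 2. It went against the number of genes detected, at -0.50 and -0.37. Both sums are shares of the same total in a cell. Single genes followed the cathepsin share unequally: Hexa at 0.53 and 0.46, Grn at 0.44 and 0.50 and Psap at 0.43 and 0.48, but Gnptab at -0.30 and -0.06. Gnptab rose slightly with the number of genes detected, at 0.25 on both plates. The cathepsin list itself took 6.85% of gene counts, and 8 of its 12 genes reached 90% of cells.

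Cells were also described by cell cycle class, which used none of the 31 genes. The class held 62 cells, 45 on plate 1 and 17 on plate 2, with at least 6 of 24 S-phase genes or 8 of 31 G2/M genes at 10 CPM or more; the other 81 cells are called other cells. The 31 genes took 1.51% of gene counts in cycling cells and 1.74% in other cells. Per cell, the medians were 1.51% and 1.73% on plate 1 and 1.43% and 1.74% on plate 2. Of the roles, the lipid genes differed most, at 0.530% against 0.654%, while glycosaminoglycan genes were at 0.282% and 0.288%. Of the 29 ranked genes, 15 were lower in cycling cells on both plates and 2 were higher on both, where 24.3% and 35% of ranked genes were. The median log2 ratio was -0.19 over the 29 and 0.09 over all ranked genes.

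The direction over all cells depends on the scale. Cycling cells yielded more gene counts per spike-in count, 27.6 against 21.5 on plate 1 and 28.6 against 21.7 on plate 2 (medians). Scaled to spike-ins, the sum of the 31 genes was higher in cycling cells by 0.18 on the log2 scale, where that of all genes was higher by 0.39. For the mean over cells of both plates, the direction for the 31 genes thus flips between the scales. By plate, the median scaled sum of a cell was 17129 in cycling and 14190 in other cells on plate 1. On plate 2 it was 15890 in cycling and 16952 in other cells, so the median there stayed lower in cycling cells. The part of RNA content in the differences above was not tested.

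**Figure D5:**
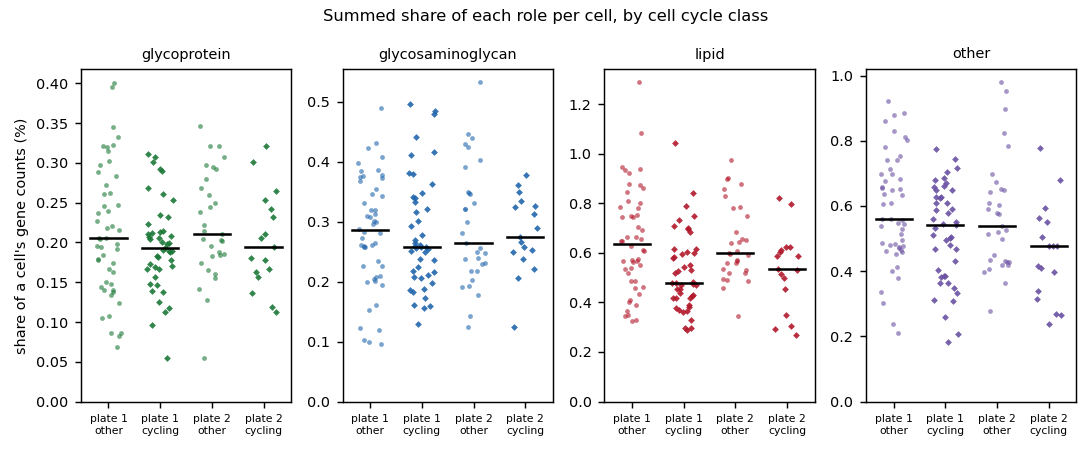
Summed share of each role in a cell's gene counts (vertical axis, percent) for other and cycling cells of each plate (horizontal axis), 1 point per cell and a black line at the median. The medians of lipid genes are 0.637% and 0.478% on plate 1 and 0.601% and 0.534% on plate 2, other cells first.

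At a bound of 1.5-fold, 1 of the 29 genes was lower in cycling cells and 0 were higher, where 11.8% and 21.1% of ranked genes were. The gene was Lipa (chromosome 19, 34492318 to 34527474, minus strand), at 393 pooled CPM in cycling cells and 624 in other cells. Exact Poisson intervals of the read counts, without the spread between cells, were 387 to 399 and 617 to 630. Over all cells the quartiles of Lipa were 220 and 719 CPM. Its log2 ratio was -0.66, with -0.66 on plate 1 and -0.68 on plate 2, and -0.21 when scaled to spike-ins. With stricter limits for the cycling class (8 S or 10 G2/M genes) it was -0.58, short of the bound. It was read in nearly the same share of both classes, 93.5% and 92.6%.

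Detection of the less frequent genes went the other way, as it did for most genes of like detection. Of 18 genes read in 10 to 90% of cells, 13 were found in a larger share of cycling cells after all cells were thinned to 200000 gene counts, where 80.4% of 7244 such genes were. The share is near that of all genes, and cycling cells had more genes detected, a median of 3601 against 2907. The largest differences were those of Gnptab, Dnase2a and Hgsnat. Gnptab was read in 50.0% of cycling cells (37.02 to 62.98) and 27.2% of other cells (17.9 to 38.2) after thinning, and in 50.0% and 28.4% before. Dnase2a was read in 75.8% (63.3 to 85.8) and 53.1% (41.7 to 64.3), and in 79% and 55.6% before. Hgsnat was read in 46.8% (34 to 59.9) and 24.7% (15.8 to 35.5), the same before thinning. Pooled Hgsnat was 133.6 CPM in cycling and 138.7 in other cells.

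The plates differed little in these genes. At 1.5-fold, Glb1 was higher on plate 2, at 250 against 158 pooled CPM, and Aga was lower, at 52.6 against 90.4. That is 1 of 29 in each direction, where 9.63% of ranked genes were higher and 16.4% lower on plate 2. The ribosomal RNA precursor Rn45s took 8.32% of gene counts on plate 1 and 11.3% on plate 2, and its part in these values was not tested.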

How the data were processed

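The authors deposited raw read counts per gene and cell for 143 cells, with 23337 gene rows and 92 spike-in rows. Per the submitters' processing notes the tools were HTSeq, Picard, STAR (2.5.3a) and Trim Galore (0.4.3), and the build was mm10; which annotation was counted was not given in the sources used here. Column totals equalled the totals in the labels in 143 of 143 cells, and 0 cells repeated another. CPM were computed from gene counts without spike-ins, with Rn45s kept. Reads carry no molecular identifiers, so they are not independent counts of molecules. Poisson intervals on pooled counts may thus be too narrow even for counting error. Exact intervals of shares of cells cover the sampling of cells only, and 1 pool shows no variation among animals. Exon lengths, positions and overlaps come from GENCODE M21 (GRCm38), by symbol. Python 3.11.15, numpy 2.4.6, pandas 2.3.3 and scipy 1.17.1 were used. Ratios of single genes between cell classes or plates were taken on pooled CPM with a pseudocount of 1. Those of summed genes had no pseudocount. Scripts were first tested on simulated counts. No cell was removed and no doublet caller was run on these singly sorted wells. The genes, lists and settings were chosen with earlier results of these data known. Genes outside the 31 were named by a rule: the 5 highest in pooled CPM and those at 0 of a list, and the 5 most like each of the 3 most variable members. Card14, Mast1, Tmem202, Rnaset2b, Rn45s, P2ry12, Sall1 and Tmem119 were named outside it, after their values were seen. A few genes of these lists are not reported here and were left out of the list counts.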

Additional observations from a re-analysis of the deposited data

How the results depend on the processing

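No paired analysis was possible because all cells belong to 1 group and 1 pool, with no replicates. The number of genes read in at least 90% of cells, 12, lay between 10 and 12 under 7 alternatives. The share of gene counts, 1.64%, was 1.74% outside the cycling class, 1.57% with spike-ins included, 1.81% without Rn45s and 1.59% as a median over cells. The number of genes with an excess of 1 or more, 1, was 3 on plate 2 (Manba and Gaa besides Hgsnat), 2 outside the cycling class (Naglu besides Hgsnat) and 0 on the variance of log2(CPM + 1). Of all ranked genes, 3.65%, 1.83% and 0.624% reached that bound in these settings, in the same order. The median excess, 0.25, was 0.26 on plate 1, 0.17 on plate 2, 0.15 outside the cycling class, 0.22 without cells under 2000 genes, 0.26 with a narrower running window, 0.14 scaled to spike-ins, 0.17 without a filter and 0.16 on the variance of log2 values. The count lower in cycling cells, 1, was 0 scaled to spike-ins, 2 on plate 1, 6 on plate 2, 4 with limits of 8 S or 10 G2/M genes (Idua, Smpd1, Pla2g15 and Gaa, with Lipa at -0.58 not among them) and 0 at 2-fold. Of all ranked genes, 4.49%, 14.9%, 21.4%, 13.1% and 4.39% were lower in these settings, in the same order. The count higher in cycling cells, 0, was 5 scaled to spike-ins (Manba, Galns, Arsb, Galc and Gnptab) and 1 on each plate. Of all ranked genes, 40.8% were higher scaled to spike-ins, 23.7% on plate 1 and 28.5% on plate 2. The median rho between pairs, 0.048, was 0.16 scaled to spike-ins, where that of all pairs was 0.10, 0.042 with ranks within plates and 0.045 thinned. Of the leading 10 genes per kilobase, 9 were kept with the longest transcript or without division by length, Lipa replacing Gm2a; the longest transcript raised Galc, Man2b1, Manba, Lipa and Gusb by over 1.5 times. The cause of these changes was not tested.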
